A study of Mus musculus with 15 samples.

Results

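The 10 genes followed here are those by which muscle takes up and uses glucose, measured in the gastrocnemius of aged female mice: Slc2a4, Hk2, Pfkm, Aldoa, Gapdh, Pgam2, Eno3, Pkm, Ldha and Pygm, which were listed by name for their role and matched by symbol to the Ensembl identifiers of the deposited counts. These are 10 of 55450 genes counted, and all 10 passed the filter on low counts that left 16920 genes for testing. Each library came from 1 mouse, and the 15 animals were C57BL/6JN females aged over 17 months. Mice of the Low group, robust in the labels, were positive for no more than 1 frailty marker, those of the High group, frail in the labels, for 2 or more, assigned after the experiment from treadmill, grip, Rotarod, body weight and frailty index tests that all mice had gone through, among them a treadmill run to exhaustion. Control mice stayed sedentary in their cages (Low Control, n = 4 mice; High Control, n = 3 mice). Run mice went through 2 downhill bouts on a treadmill set at 13 m/min and a decline of 22 degrees, which loads lengthening muscle, and the muscle was taken 24 h after the last bout (Low Run, n = 4 mice; High Run, n = 4 mice).

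Muscle takes up glucose through GLUT4, the insulin- and contraction-responsive transporter encoded by Slc2a4, and hexokinase II (Hk2) traps it as glucose 6-phosphate. Phosphofructokinase (Pfkm) commits it to glycolysis, and aldolase (Aldoa), glyceraldehyde-3-phosphate dehydrogenase (Gapdh), phosphoglycerate mutase (Pgam2), beta-enolase (Eno3) and pyruvate kinase (Pkm) carry it to pyruvate, which lactate dehydrogenase A (Ldha) reduces to lactate. Glycogen phosphorylase (Pygm) releases glucose units from stored glycogen, the fuel of fast glycolytic fibres during hard contraction, and the gastrocnemius of the mouse is rich in such fibres.

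The total count per mouse ran from 19395125 to 30699216, and the 10 genes together took between 3.62% and 5.52% of it (median 4.62%). Values are given as CPM, each gene's share of the library's counts after edgeR's TMM scaling, and levels are compared between genes only as RPKM, which is CPM per kilobase of exon. The muscle markers Acta1, Ckm and Mb summed to between 45165 and 76977 CPM in every mouse, and no marker of the other cell types considered was at 0 counts in any mouse. The RNA came from one powdered muscle per mouse, so fewer fibres of a type and less RNA per fibre cannot be told apart. A pair of libraries stood apart from the rest. Mouse D9 (Low Control) and mouse D62 (High Run) both lay below all other 13 mice for 5 of the 10 genes, Slc2a4, Hk2, Pgam2, Eno3 and Ldha. Over all genes tested this held for 11.5%, and 13.3% of genes lay above the other 13 in both mice. The muscle marker sum was lowest in these mice too, at 45165 CPM in D9 and 45844.5 CPM in D62. Their 10 most counted genes took 20.3% and 20.5% of all counts, against 21.8% to 26.5% in the other mice. Where these mice moved a value by much, the value without them is given too. They were picked by their values in these same data, so SE and p values without them can be too small. Those fits are a description only. Differences between replicates here are differences between mice.

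Gapdh was counted with difficulty. The Gapdh transcript (chr6:125161715-125166467, minus strand; this and all gene coordinates are on GRCm38, from GENCODE M21) matched 79 other annotated genes, 77 of them pseudogenes, at 95% identity or more over at least 100 bases, and 72.6% of the counts shared out among Gapdh and these copies lay on the copies. Its level of 35.0 to 59.3 CPM is therefore no measure of the amount of Gapdh mRNA, and its fold changes are uncertain. For Pkm the copies held 10.9% of the joint counts and for Ldha 6.75%, and the other 7 genes had no such copy. Pfkm shared 10.2% of its exonic length with the gene Gm26513 on the same strand, and Pkm shared 15.3% with Gm49759. The symbol Aldoa also belonged to a second identifier with 8 to 40 counts per mouse, which was left out beside the 368843 to 701933 counts of the one used.

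Per length, Aldoa was the most abundant of the 10 genes. Its mean over the 15 mice was 6570 RPKM (5540 to 8096), which placed it 8th of the 16906 tested genes with a length. Aldoa (chr7:126795234-126800751, minus strand) was above every other member in every mouse. Eno3 followed with a mean of 3381 RPKM and Pygm with 2837 RPKM, and their ranges over mice, 1783 to 4426 and 2152 to 3970 RPKM, overlapped. Pgam2 (mean 1763 RPKM, 415 to 2773) overlapped with Pygm above it and with Pfkm (mean 1434 RPKM, 861 to 1915) below it. Ldha (692 RPKM) and Pkm (658 RPKM) could not be ordered either. Slc2a4 (175 RPKM) and Hk2 (82.8 RPKM) were lower, and Gapdh was listed at 11.8 RPKM.

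The muscle form of each enzyme far exceeded its other forms, with lactate dehydrogenase as the closest pair. Pfkm made up between 99.7% and 99.9% of the summed RPKM of Pfkm, Pfkp and Pfkl. Eno3 made up at least 99.8% of Eno3 and Eno1 and, to 3 digits, Pgam2 made up 99.9% or more of Pgam2 and Pgam1 and Pygm 99.9% or more of Pygm, Pygb (the brain form) and Pygl (the liver form). The share of Slc2a4 in Slc2a4 plus Slc2a1, the transporter for basal uptake, was between 92.9% (mouse D9) and 98.1%. The share of Hk2 beside Hk1 ran from 95.8% (mouse D62) to 98.8%. Ldha, whose subunit favours lactate formation, made up 82.5% to 90.1% of Ldha plus Ldhb, the heart subunit. Group means of the Ldha share were 85.7% in Low Control, 86.7% in Low Run, 88.0% in High Control and 86.6% in High Run mice, closer to each other than the mice within any one group. Group means of Aldoc and Pklr were at most 0.114 RPKM, and Gapdhs had no counts. Near-identical copies held 35.0% of the joint counts for Pgam1, 18.9% for Ldhb and 14.5% for Eno1. They held 6.75% for Ldha and none for Pgam2 and Eno3, so the shares of these muscle forms can be too high.

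**Figure D1:**
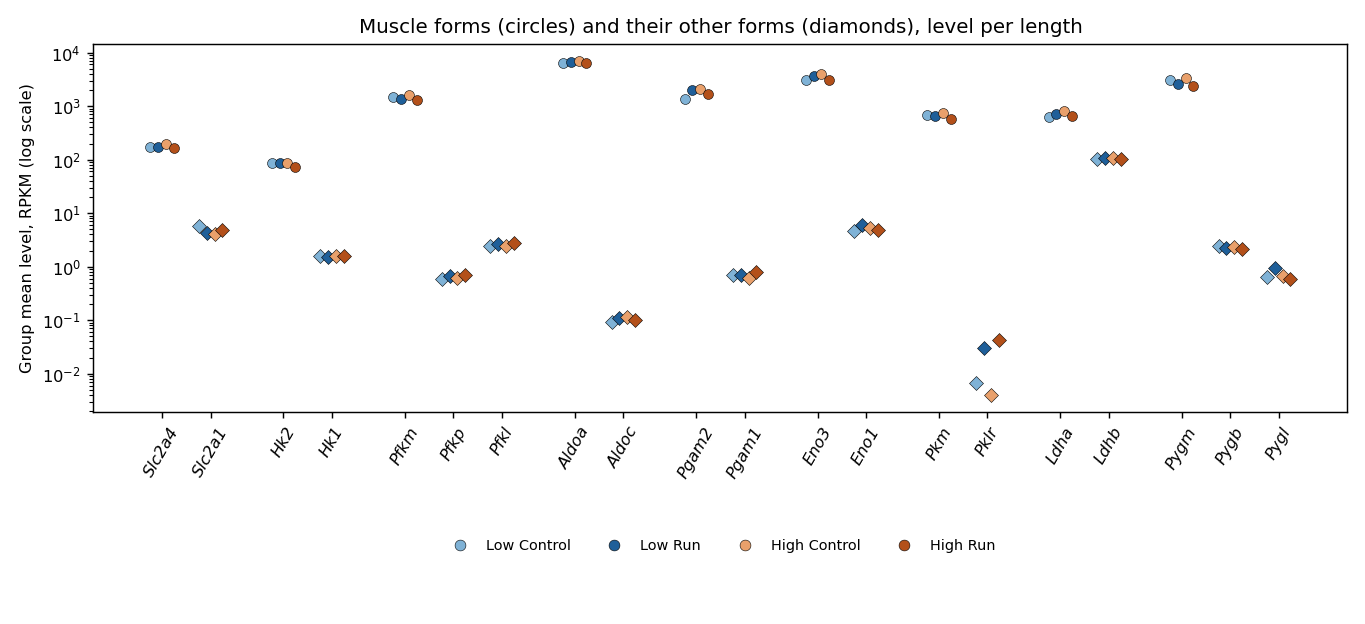
Group mean level per length (RPKM, log axis) of 9 of the members (circles) and their other forms (diamonds) in the 4 groups, without error bars. Each muscle form lies above its other forms in every group, and Ldha and Ldhb are the closest pair, at 620 to 802 RPKM and 101 to 109 RPKM.

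Promoter windows from RefSeq (GRCm38.p6) were matched to 9 of the 10 genes, Slc2a4 being the exception. Of 5 short motifs searched on both strands in the 250 bases before the start, TATAAA was in no window of the members and in 12.4% of all 32851 windows. CAGCTG, an E-box of the kind that myogenic factors bind, was in a window of 3 of the 9 genes (Pkm, Pgam2 and Pygm) and in 13.0% of all windows. CACGTG was found for 2 genes (Ldha and Pfkm; 6.02% of all windows), ACGTG, which CACGTG contains, for 6 genes (16.6%), and GGGCGG for 4 genes (32.7%). Several genes have more than 1 window, so these counts and the shares over windows are not on the same base. The windows of 3 genes are shown. Pygm was taken because it gave the smallest p of the members in both comparisons of runners with controls. Pgam2 and Eno3 were taken because their levels varied together over the mice (Pearson r of log2 CPM 0.94, and 0.71 without D9 and D62). Ldha, whose windows are not shown, varied with them more closely over those 13 mice (0.91 with Eno3 and 0.87 with Pgam2). Capitals mark the motifs. The Pygm window (chr19:6384158-6384407, plus strand) holds CAGCTG starting 168 and 8 bases before the start and ACGTG, on the minus strand, 61 bases before it. The Pgam2 window (chr11:5803797-5804046, minus strand) holds CAGCTG once, 125 bases before the start, and the Eno3 window (chr11:70656926-70657175, plus strand) holds none of the 5 motifs.
Pygm: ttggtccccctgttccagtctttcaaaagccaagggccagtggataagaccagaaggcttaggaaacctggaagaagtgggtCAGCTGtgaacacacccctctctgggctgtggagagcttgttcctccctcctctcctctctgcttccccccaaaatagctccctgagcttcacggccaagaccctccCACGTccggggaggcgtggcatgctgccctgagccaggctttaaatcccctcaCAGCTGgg
Pgam2: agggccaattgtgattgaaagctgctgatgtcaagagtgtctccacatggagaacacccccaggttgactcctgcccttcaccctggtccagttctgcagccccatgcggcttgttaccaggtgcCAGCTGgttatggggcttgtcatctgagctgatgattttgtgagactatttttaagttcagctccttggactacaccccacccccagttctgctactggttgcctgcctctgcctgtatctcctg
Eno3: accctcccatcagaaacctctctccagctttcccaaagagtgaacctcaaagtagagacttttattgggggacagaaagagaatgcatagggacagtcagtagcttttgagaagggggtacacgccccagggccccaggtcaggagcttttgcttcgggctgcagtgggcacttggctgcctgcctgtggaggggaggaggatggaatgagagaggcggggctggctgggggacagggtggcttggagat

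The main questions of the design were what downhill running changed in each frailty group and whether the change differed between them. By edgeR's quasi-likelihood test at an FDR of 0.1, 0 of the 10 genes were called in any of the 6 comparisons, and neither was any of the 16920 genes tested (0%). At an unadjusted p under 0.05, 0 of 10 passed in Low Run against Low Control (13.4% of all genes), 1 of 10 in High Run against High Control (5.18%), 0 of 10 for the Frailty × Run interaction (7.93%), 0 of 10 in High Control against Low Control (5.86%), 0 of 10 in High Run against Low Run (2.51%) and 1 of 10 for Run averaged over frailty (8.63%). The gene was Pygm both times, lower in the runners. DESeq2's Wald test called Pygm for Run averaged over frailty, where it called 0.529% of genes, and no member in Low (0.0374% of genes), in High (0.0934%) or in the other comparisons (0%). Voom with sample quality weights called 0 members, with 0.266% of all genes called in High and 0% elsewhere. The median log2 fold change of the 10 genes was 0.04 in Low, with 5 genes on either side of 0, beside 0.02 over all genes. In High it was −0.30, with all 10 genes below 0, beside 0.05 over all genes. The muscle markers Acta1, Ckm and Mb, which are not glucose use genes, had 0.19, 0.14 and 0.35 in Low. In High they had −0.26, −0.30 and 0.01, so Acta1 and Ckm moved much like the members.

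**Figure D2:**
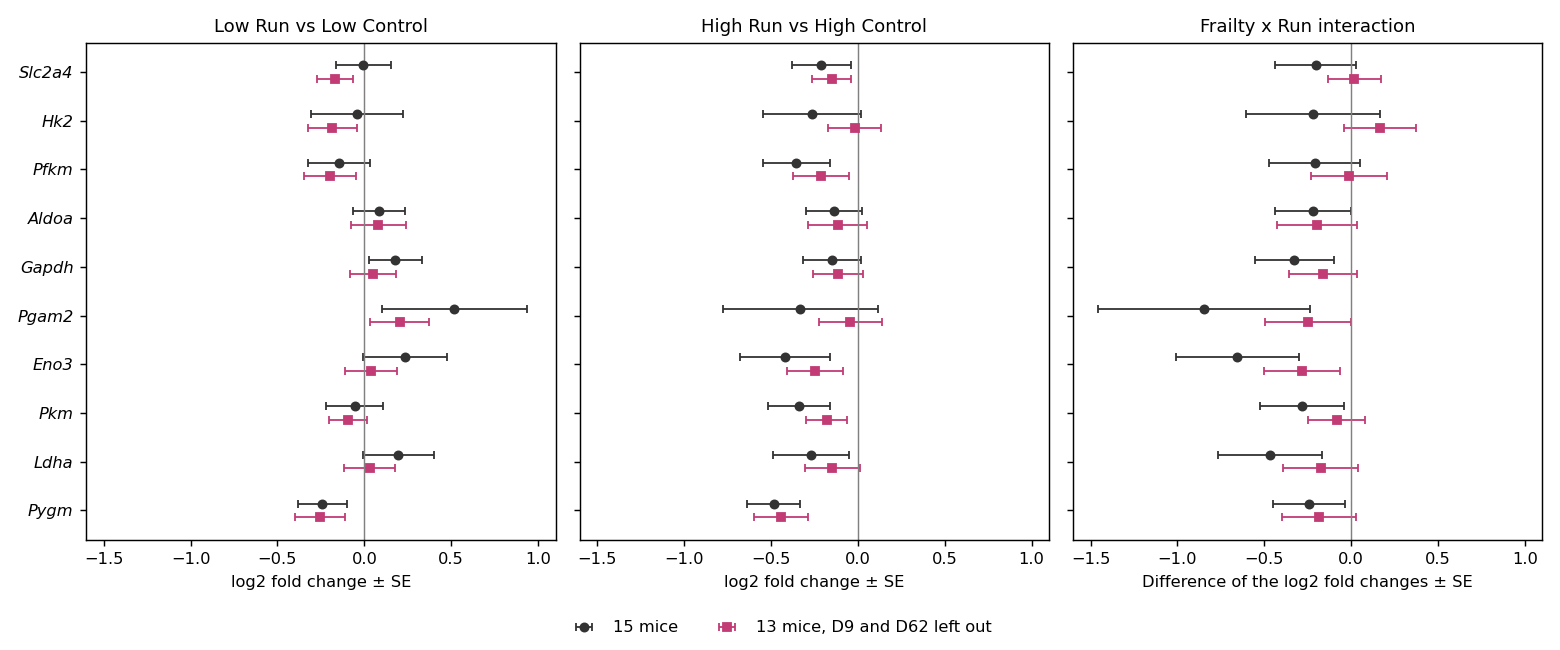
Log2 fold change of each gene (points) with its SE (bars) from edgeR, after running in Low mice (left), after running in High mice (middle) and their difference, the interaction (right), from all 15 mice (circles) and from 13 mice without D9 and D62 (squares). In High mice all 10 values lie below 0 in both fits, with medians of −0.30 and −0.15.

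Among the members the smallest p came from glycogen breakdown. Pygm (chr19:6384399-6398459, plus strand) was at 11898, 10589.6 and 10086 CPM in the High Control mice. In the High Run mice it was at 7701, 7864, 8556 and 6926 CPM. Every High Run mouse was therefore below every High Control mouse, as were 3.61% of all genes tested, with means of 7762 ± 669 (SD) against 10858 ± 935 CPM. The log2 fold change was −0.48 (SE 0.15), which is 0.715-fold, with an unadjusted p = 0.00548 and an adjusted p = 0.956 by edgeR. It stayed between −0.54 and −0.41 when any High mouse was left out, and was −0.44 (unadjusted p = 0.0129) without D9 and D62.

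In Low mice the same gene differed less. Pygm was at 12775, 9839, 8122 and 8997 CPM in the Low Control mice D8, D9, D11 and D98, and at 8741, 8152, 8315 and 8376 CPM in the Low Run mice. The runners were close to each other and overlapped with the controls, and the widest gap came from D8. The log2 fold change was −0.24 (SE 0.14, unadjusted p = 0.103, adjusted p = 0.422), −0.10 without D8 and −0.34 without D11, which brought the unadjusted p to 0.0326. Averaged over both frailty groups, Pygm was lower in the runners by a log2 fold change of −0.36 (SE 0.10, 0.777-fold, unadjusted p = 0.00285). Its adjusted p was 0.442 by edgeR and 0.0753 by DESeq2, the only call of a member in any fit, and between 0.197 and 0.464 in the other alternatives, and 0.264 to 0.753 with one mouse left out. The interaction for Pygm was −0.24 (SE 0.21, adjusted p = 0.681), so the difference in High mice was not shown to be unlike that in Low mice. Without D8 the interaction was −0.39 (unadjusted p = 0.0493).

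Phosphorylase kinase, which switches phosphorylase on, was followed by subunit, and no test compared the subunits with each other. Phkb, its beta subunit, was at 472 to 502 CPM in High Control and at 299 to 487 CPM in High Run mice (log2 fold change −0.35, SE 0.16, unadjusted p = 0.0475, adjusted p = 0.956). The lowest of these was D62, and without D9 and D62 the value was −0.26 (SE 0.15, unadjusted p = 0.112). In Low Control mice Phkb was at 463 to 551 CPM and in Low Run mice at 336 to 461 CPM, without overlap (−0.36, SE 0.15, unadjusted p = 0.0301, adjusted p = 0.358). Of all genes tested, 3.6% were likewise lower in every Low Run mouse. For Run averaged over frailty Phkb differed by −0.36 (SE 0.11, unadjusted p = 0.00570, adjusted p = 0.456) and Phka1, the alpha subunit, by −0.43 (SE 0.17, unadjusted p = 0.0218, adjusted p = 0.508). Without D9 and D62, the lowest for Phka1 being D62 at 481 CPM, these were −0.29 and −0.40. Phkg1, the catalytic gamma subunit, was at 642, 246, 628 and 673 CPM in Low Control and at 664, 617, 682 and 499.9 CPM in Low Run mice, with D9 far below the rest. In High Control it was at 739.8, 759 and 819 CPM and in High Run at 578, 538, 608 and 359 CPM. Every High runner was therefore below every High control, as were 3.61% of all genes tested. The log2 fold changes of Phkg1 had opposite signs, 0.17 (SE 0.25, adjusted p = 0.754) in Low and −0.57 (SE 0.27, unadjusted p = 0.0504, adjusted p = 0.956) in High mice, with an interaction of −0.74 (SE 0.37, unadjusted p = 0.0615, adjusted p = 0.600). Without D9 and D62 they were −0.08 (SE 0.12), −0.44 (SE 0.13, unadjusted p = 0.00380, adjusted p = 0.525) and −0.35 (SE 0.17). Averaged over frailty, Phkg1 then differed by −0.26 (SE 0.09), beside −0.29 for Phkb and −0.40 for Phka1. Within the frailty groups the same 13 mice gave −0.33 in Low and −0.26 in High for Phkb. For Phka1 they gave −0.52 in Low and −0.28 in High. The interactions of Phkb and Phka1 were 0.08 (SE 0.21) and 0.24 (SE 0.29), of the opposite sign to that of Phkg1. The averages of like sign therefore do not show that the subunits changed alike in each group. Of 9 genes of glycogen breakdown tested, 0 were higher and 3 lower at an unadjusted p under 0.05 for Run averaged over frailty, Pygm among them, where 3.04% of all genes were lower. A negative log2 fold change was found for 8 of the 9 (median −0.23), while 53.4% of all genes had a positive one. Of 8 genes of glycogen synthesis, none passed in either direction there, and 6 were negative (median −0.15). Negative values were also found for 11 of 13 genes of lactate and pyruvate handling, but for 2 of 7 genes of lower glycolysis. In the wider list of 65 genes given below, 47 were negative (median −0.11), so the sign was not particular to glycogen breakdown.

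The myosin of type IIB fibres was lower in the same runners. Myh4, which marks the fastest glycolytic fibres, was at 48769.5 to 69150.4 CPM in Low Control, 32689 to 46904 in Low Run, 51117 to 58632 in High Control and 31554 to 50216 CPM in High Run mice. Every Run mouse was below every Control mouse of its frailty group, as held for 3.6% of all genes tested in Low and 3.61% in High. The log2 fold change of Myh4 was −0.48 in Low and −0.44 in High (averaged unadjusted p = 0.00224, adjusted p = 0.413). Without D9 and D62 these were −0.54, −0.35 and an unadjusted p = 0.00323 (edgeR). The other fast myosin genes listed were not lower alike. Myh1 (type IIX) had −0.04 in Low and −0.03 in High, and Myh2 (type IIA) had 0.12 and 0.32. The sum of the 5 type I fibre genes was 1179 to 1848 CPM in High Control and 1425 to 3560 CPM in High Run mice, where D62 was highest and D53 next at 2686 CPM. In Low Control and Low Run mice that sum was 1371 to 2334 and 1496 to 2778 CPM. Red blood cell markers, 3 genes in all, summed to 287 to 457 CPM in High Control and 355 to 3549 CPM in High Run mice (D53 highest), and to 460 to 2205 CPM in Low Control and 227 to 760 CPM in Low Run mice. Their log2 fold changes were 1.87 (Hba-a1, unadjusted p = 0.0135), 2.13 (Hbb-bs, unadjusted p = 0.00876) and 2.32 (Alas2, unadjusted p = 0.00670) in High mice and −1.19, −1.19 and −1.26 in Low mice by edgeR. The interactions were 3.06, 3.31 and 3.58 (adjusted p = 0.600 each), and 3.24, 3.63 and 3.90 without D9 and D62. Macrophage markers, 4 genes in all, summed to 20.2 to 30.1 CPM in High Control and 35.3 to 69.4 CPM in High Run mice, and to 26.5 to 46.3 and 41.4 to 65.5 CPM in Low Control and Low Run mice. Adipocyte markers, 4 genes in all, summed to 72.8 to 87.7 CPM in Low Control and 38.7 to 57.2 CPM in Low Run mice. In High Control and High Run mice they summed to 45.7 to 121.6 and 43.2 to 68.3 CPM. The part of fibre type, blood, adipocytes or infiltrating cells in the Pygm values was not tested.

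**Figure D3:**
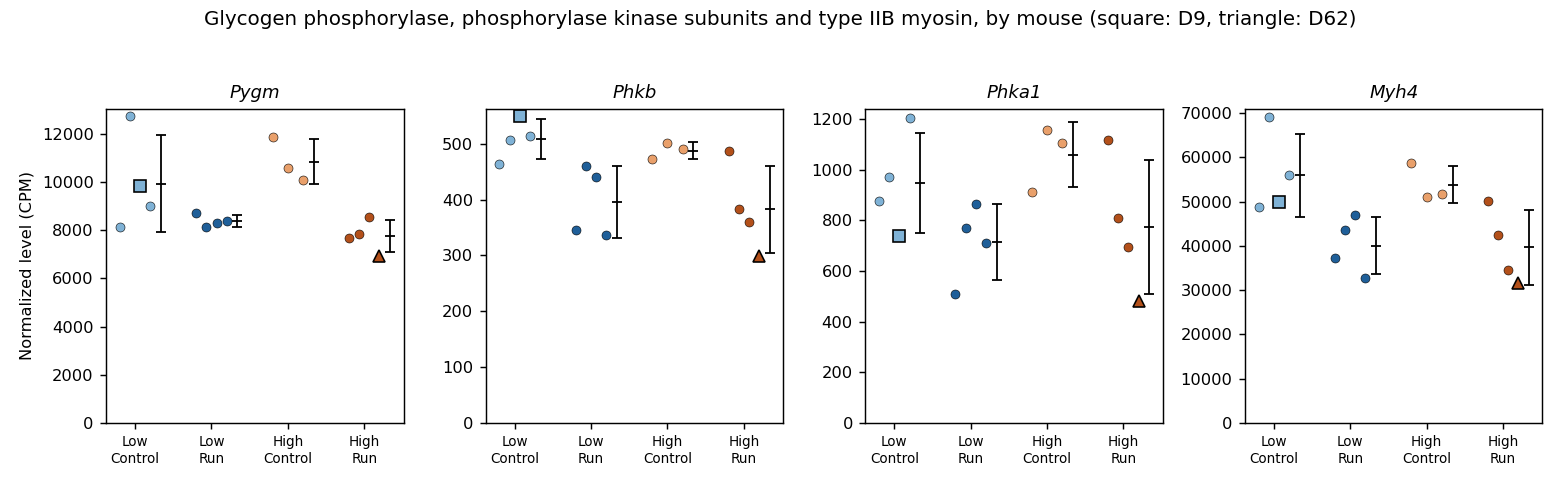
Normalized level (CPM) of Pygm, Phkb, Phka1 and the type IIB myosin gene Myh4 in each mouse of the 4 groups, with the group mean ± SD beside the points and mice D9 and D62 marked by a square and a triangle. For Pygm the 4 High Run mice sit at 6926 to 8556 CPM, below the 3 High Control mice, and for Myh4 the runners of both frailty groups sit below their controls.

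The glucose transporter and hexokinase showed no difference beyond the spread between mice. Slc2a4 (chr11:69942539-69948188, minus strand) was at 679, 402, 673 and 664 CPM in Low Control, where D9 had the low value, and at 561, 615, 573 and 661 CPM in Low Run mice. In High Control it was at 673, 629 and 704 CPM and in High Run at 666, 577, 573 and 495 CPM, with D62 lowest. The groups overlapped in both cases. Its log2 fold change was −0.01 (SE 0.16, adjusted p = 0.991) in Low and −0.21 (SE 0.17, adjusted p = 0.958) in High mice. Without D9 and D62 these became −0.17 (SE 0.10, adjusted p = 0.668) and −0.15 (SE 0.11, adjusted p = 0.871), of like size in both groups.

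Hk2 (chr6:82725025-82774454, minus strand) had one very low mouse. It was at 473, 458 and 601 CPM in the High Run mice D52, D53 and D49 and at 186 CPM in D62, against 549, 503 and 493 CPM in High Control. Low Control mice were at 375 to 710.4 CPM and Low Run mice at 489 to 569 CPM. The log2 fold change in High mice was −0.26 (SE 0.28, adjusted p = 0.965) and −0.02 (SE 0.15) without D9 and D62, so its size there came from D62. In Low mice it was −0.04 (SE 0.26, adjusted p = 0.954), and −0.18 (SE 0.14) without D9 and D62.

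For the upper glycolytic enzymes the groups overlapped as well. Pfkm (chr15:98092589-98132451, plus strand) was at 6049.6, 5032 and 5402 CPM in High Control and at 4486, 4634, 5197 and 2874 CPM in High Run mice. All but D53 of the High Run mice were below every High Control mouse. The log2 fold change was −0.35 (SE 0.19, unadjusted p = 0.0846, adjusted p = 0.956), and −0.21 (SE 0.16) without D9 and D62. In Low mice Pfkm was at 4462 to 6397 CPM in controls, with D8 highest, and at 3769 to 4958 CPM in runners (log2 fold change −0.14, SE 0.18, adjusted p = 0.707). Aldoa, the most abundant, was at 16981, 16538, 23566 and 17457 CPM in High Run and at 21273, 19219 and 21051 CPM in High Control, so 3 of 4 runners were below and D53 above all controls. Its log2 fold change was −0.14 (SE 0.16, adjusted p = 0.965) with D53 and −0.27 without it.

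**Figure D4:**
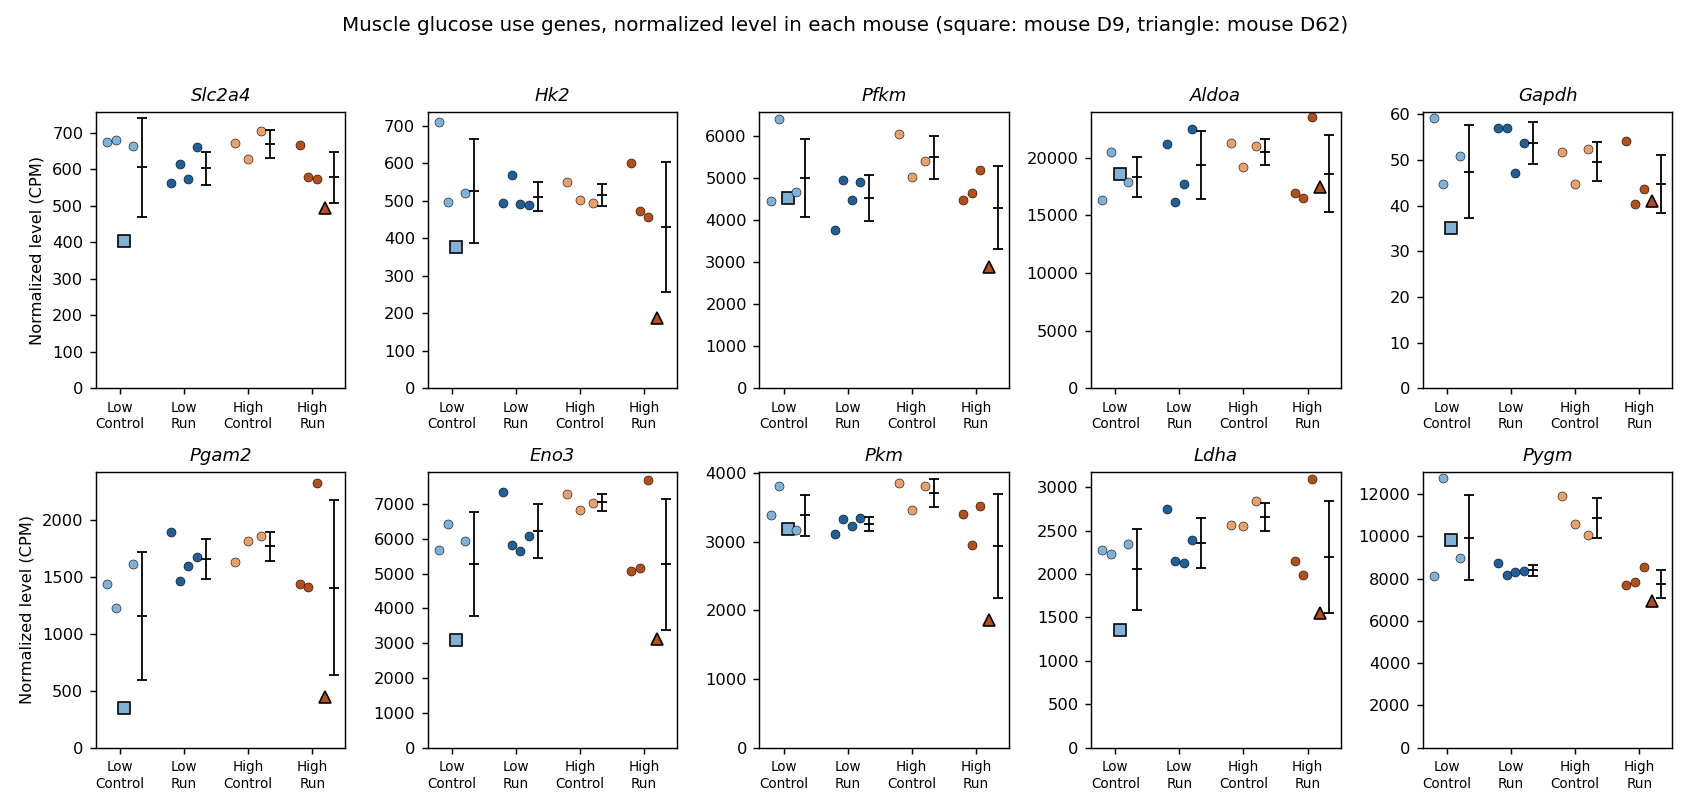
Normalized level (CPM, each axis from 0) of the 10 genes in each mouse of the 4 groups, with the group mean ± SD beside the points, and mice D9 (square) and D62 (triangle) marked. Pgam2, Eno3 and Ldha show both marked mice below all others, while for Aldoa and Pkm the square lies among them.

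Pgam2 varied most between mice of a group, with a within-group SD of 0.76 on the log2 scale (0.24 without D9 and D62). Pgam2 (chr11:5801640-5803733, minus strand) was at 1230.0, 348, 1439 and 1620.1 CPM in Low Control and at 1893, 1467, 1602 and 1673 CPM in Low Run mice. It was at 1630.5, 1814 and 1865 CPM in High Control and at 1438, 1417, 2329.7 and 447 CPM in High Run mice. D9 (348) and D62 (447) were far below the other 13 mice, which ran from 1230.0 to 2329.7 CPM, and D53 was the highest. For Pgam2 the log2 fold change was 0.52 (SE 0.42, adjusted p = 0.550) in Low and −0.33 (SE 0.45, adjusted p = 0.965) in High mice. Without D9 and D62 the same values were 0.20 (SE 0.17) and −0.04 (SE 0.18), and without D53 alone the value in High was −0.68.

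Eno3 (chr11:70657202-70662513, plus strand) followed the same mice. It was at 6421, 3101, 5664 and 5942 CPM in Low Control and at 7345, 5822, 5650.0 and 6068 CPM in Low Run mice. High Control mice were at 7287, 6810.1 and 7029 CPM and High Run mice at 5066, 5166, 7696 and 3126 CPM. In Eno3, 3 of the 4 High Run mice were below all High Control mice and D53 was above them. For Eno3 the log2 fold change was 0.24 (SE 0.24, adjusted p = 0.641) in Low and −0.42 (SE 0.26, unadjusted p = 0.126, adjusted p = 0.956) in High mice, and 0.04 and −0.25 without D9 and D62. With D53 left out it was −0.66 in High (unadjusted p = 0.0168, adjusted p = 0.796).

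Pkm (chr9:59656368-59679375, plus strand), whose counts do not separate the M1 and M2 splice forms, varied less, with a within-group SD of 0.24 on the log2 scale. High Control mice were at 3849, 3464 and 3803 CPM and High Run mice at 3408, 2943, 3522 and 1859 CPM, and the groups overlapped through D53. Pkm had a log2 fold change of −0.34 (SE 0.18, unadjusted p = 0.0748, adjusted p = 0.956), and −0.18 (SE 0.12) without D9 and D62. In Low mice the values were 3161 to 3804 CPM in controls and 3113 to 3338 CPM in runners (log2 fold change −0.06, SE 0.16). Gapdh, with its counting limit, gave log2 fold changes of 0.18 (SE 0.16, adjusted p = 0.577) in Low and −0.15 (SE 0.17, adjusted p = 0.965) in High mice, of 0.05 and −0.12 without D9 and D62, and of 0.16 and −0.13 when the counts of its copies were added.

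Ldha (chr7:46841475-46855627, plus strand) was at 2234, 1354, 2278 and 2346 CPM in Low Control and at 2742, 2148, 2123 and 2395 CPM in Low Run mice. High Control mice were at 2564, 2555 and 2840.1 CPM and High Run mice at 2151, 1992, 3092 and 1554 CPM. As for Eno3, 3 High Run mice were below and D53 above all High Control mice. The log2 fold changes of Ldha were 0.20 (SE 0.20, adjusted p = 0.644) in Low and −0.27 (SE 0.22, adjusted p = 0.958) in High, and 0.03 and −0.15 without D9 and D62. Leaving out D53 alone gave −0.48 in High (unadjusted p = 0.0291, adjusted p = 0.796).

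Whether frailty itself went with a difference was asked of the control mice. Pgam2, Eno3 and Ldha were each higher in all 3 High Control mice than in all 4 Low Control mice, as were 5.14% of all genes tested. The log2 differences were 0.61 (SE 0.45, unadjusted p = 0.190, adjusted p = 0.711) for Pgam2, 0.41 (SE 0.26, unadjusted p = 0.130, adjusted p = 0.704) for Eno3 and 0.37 (SE 0.22, unadjusted p = 0.110, adjusted p = 0.704) for Ldha. D9 made up much of these values, which became 0.30 (SE 0.18), 0.22 (SE 0.16) and 0.21 (SE 0.16) without D9 and D62. Of the 10 genes, 9 had a positive difference (median 0.14 beside −0.02 over all genes), and 7 without these 2 mice. The muscle markers Acta1, Ckm and Mb had differences of 0.30, 0.24 and 0.19, so the sign was not particular to the members. Between High Run and Low Run mice, all 10 differences were negative (median −0.13), where 52.2% of all genes had a positive one (median 0.01). Without D9 and D62 5 of the 10 were negative and the median was 0.00, so that pattern rested on D62.

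The interaction, which is the log2 fold change in High minus that in Low mice, was below 0 for all 10 genes (median −0.26 beside 0.03 over all genes). For the muscle markers Acta1, Ckm and Mb it was −0.45, −0.44 and −0.35 (adjusted p = 0.613, 0.608 and 0.700 by edgeR), so the sign was not particular to the members. Among the members the interaction was largest in size for Pgam2 at −0.85 (SE 0.61, unadjusted p = 0.184), Eno3 at −0.66 (SE 0.35, unadjusted p = 0.0835) and Ldha at −0.47 (SE 0.30, unadjusted p = 0.137), with adjusted p of 0.642, 0.600 and 0.617. D9 in Low Control and D62 in High Run both enter it. Without them it was −0.25 (SE 0.25), −0.28 (SE 0.22) and −0.18 (SE 0.22), 8 of the 10 values were negative and the median was −0.17, while Hk2 turned to 0.16 and Slc2a4 to 0.02. The interaction and the comparisons within each frailty group share their mice, so these are not separate lines of evidence. For Run averaged over frailty, 8 of 10 genes had a negative value (median −0.10), where 53.4% of all genes had a positive one (median 0.02). The median was −0.19 with 10 negative without D9, and −0.03 with 7 negative without D62. Lowest by edgeR were Pygm (−0.36), Pfkm (−0.25, SE 0.13, unadjusted p = 0.0767, adjusted p = 0.614) and Pkm (−0.20, SE 0.12, adjusted p = 0.659).

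Over the mice the members did not vary as one block. Of 45 pairs of genes, 42 had a positive Pearson r of log2 CPM over the 15 mice, with a median of 0.57. Without D9 and D62 29 pairs were positive and the median was 0.30. Eno3 with Ldha (r = 0.96 over 15 mice and 0.91 over 13), Pgam2 with Ldha (0.93 and 0.87) and Pfkm with Pkm (0.90 and 0.81) remained high in both, whereas Slc2a4 with Pgam2 went from 0.76 to −0.35. The points share a library and a scaling factor each, so these values are a description only. The genes outside the list whose log2 CPM was most like the mean of the members over the 15 mice were Rnf11 (r = 0.97), Ndufb2 (0.94), Fam213b (0.94), Ugdh (0.94) and Amd1 (0.93). Over 13 mice their r was 0.75, 0.76, 0.77, 0.58 and 0.70, in the same order.

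**Figure D5:**
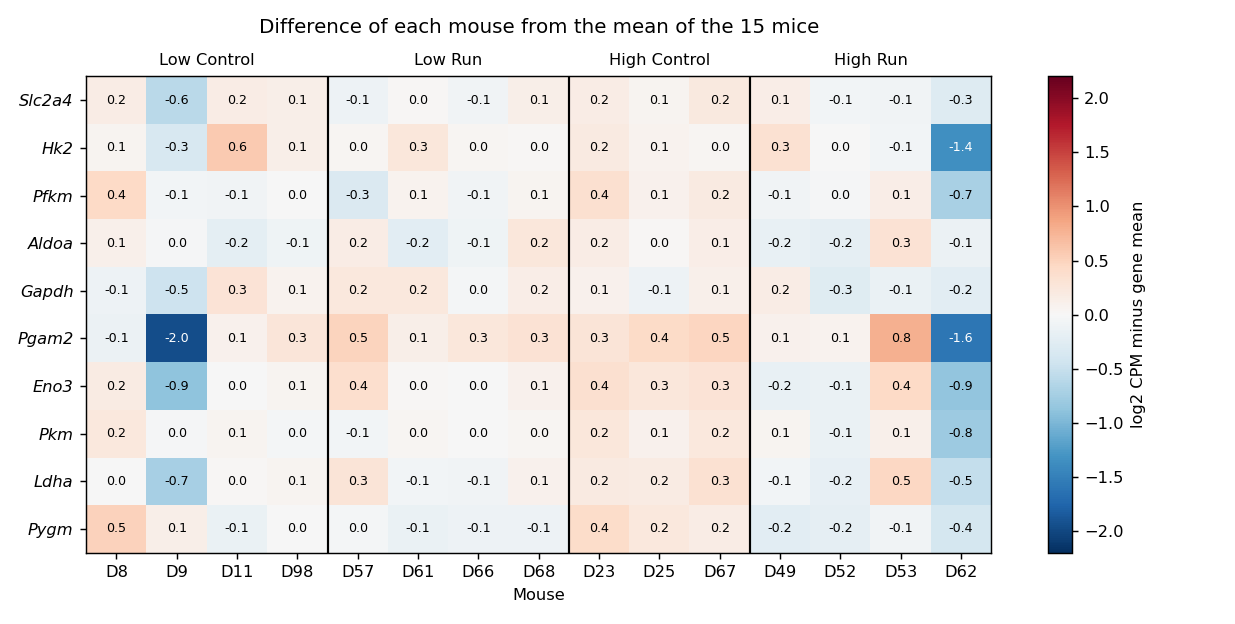
Difference of each mouse from the mean of all 15 mice, in log2 CPM, for the 10 genes (rows) and the mice by group (columns), blue below and red above the gene's mean. Columns D9 and D62 are the bluest, with Pgam2 lowest in both, and Aldoa and Pygm stay near their means in D9.

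A wider list took in 65 genes of glucose uptake, glycolysis, lactate and pyruvate handling and glycogen, the 10 among them, and all were tested. In no comparison was its share of genes with an unadjusted p under 0.05 above that of all genes. At an unadjusted p under 0.05, 1 was higher and 4 lower in Low Run against Low Control (7.69% of the list against 13.4% of all genes) and 0 higher and 3 lower in High Run against High Control (4.62% against 5.18%). For the interaction it was 2 and 0 (3.08% against 7.93%), in High Control against Low Control 0 and 1, in High Run against Low Run 1 and 0, and averaged over frailty 0 and 3 (4.62% against 8.63%). No gene of the list passed an FDR of 0.1 in any comparison, and the smallest adjusted p was 0.358. The signs did differ from those of all genes. In High Run against High Control 18 of the 65 were positive (median −0.15), against 57.2% of all genes (median 0.05). Averaged over frailty 18 were positive (median −0.11), against 53.4%, and in Low 28 were (median −0.05), against 51.9%. Tbc1d1, a Rab GTPase-activating protein that holds back GLUT4, was at 96.3 to 334 CPM in Low Control and 66.5 to 130.5 CPM in Low Run mice (log2 fold change −0.88, SE 0.30, unadjusted p = 0.0106), with D9 at 334 and D8 at 186 CPM. It was also lower in High Control than in Low Control mice (−0.83, SE 0.33, unadjusted p = 0.0239), and its interaction was 1.05 (SE 0.45, unadjusted p = 0.0327). Without D9 these 3 values were −0.44 (unadjusted p = 0.0769), −0.39 (0.141) and 0.60 (0.0885). Mlxip, a glucose-sensing transcription factor, had by edgeR a log2 fold change of −0.56 (SE 0.20, unadjusted p = 0.0127) in Low mice and an interaction of 0.74 (SE 0.29, unadjusted p = 0.0215). Its levels were 119.8 to 168.0 CPM in Low Control, with D9 highest, and 83.3 to 120.2 CPM in Low Run mice. Stbd1, which binds glycogen, had 0.71 (SE 0.29, unadjusted p = 0.0266) in Low mice. D9 at 45.8 and D8 at 49.5 CPM lay below the other Low Control mice at 100.4 and 105.4 CPM, and Low Run mice were at 75.6 to 157.5 CPM. Fits without D9 are not given for Mlxip and Stbd1. Tigar, a fructose bisphosphatase that restrains glycolysis, was at 182 to 195 CPM in High Control and 142 to 169 CPM in High Run mice (−0.32, SE 0.14, unadjusted p = 0.0390, adjusted p = 0.956). Tbc1d4, the other Rab GTPase-activating protein of this step, was higher in High Run than in Low Run mice (0.49, SE 0.21, unadjusted p = 0.0344), with D62 at 112 CPM above the other High Run mice at 58.4 to 63.7 CPM, and without D62 the difference was 0.22 (unadjusted p = 0.224).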

How the data were processed

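PolyA RNA of the gastrocnemius from 15 mice was sequenced, 1 library per mouse. The authors aligned reads to mm10 with STAR 2.7.9a and used featureCounts to count proper pairs with a unique alignment to a gene's own strand, against Ensembl build 100 without mitochondrial genes, and the deposited counts are raw. Subread is given as 2.0.3 in the submitters' processing notes. A DESeq2 variance-stabilized table was deposited too and was not used here. Groups came from the labels.

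The counts were tested in edgeR 4.0.16 under R 4.3.3 (filterByExpr, TMM, quasi-likelihood F-test, 1 mean per group over all mice, Benjamini-Hochberg over 16920 genes, called at an FDR of 0.1), limma 3.58.1 and DESeq2 1.42.0. Log2 fold changes are given with SE, and the methods were tested on simulated data. Symbols (for 55104 of 55450 counted identifiers), coordinates and exonic lengths came from GENCODE M21 (GRCm38), not the annotation counted. Near-identical copies were sought with blastn 2.17.0. Alternatives were DESeq2, voom with sample quality weights, RLE, library size only, no filter, length and GC content offsets (loess span 0.3), D9 and D62 left out, an FDR of 0.05 and each mouse left out. Leaving out D9 and D62 and adding the counts of copies were chosen after seeing the data.

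The genes and the wider and marker lists were chosen with earlier results of these data known. Named in the text were all 10 genes, their other forms, up to 3 other listed genes per comparison with the smallest unadjusted p under 0.05, the 5 genes most like the members' mean over mice, and the markers. Pdk4 and other listed genes outside the range of the other mice in D9 and D62, Phkg1, and Myh4 among the markers, were singled out after their values were seen. The total count per mouse was 19395125 to 30699216.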

Additional observations from a re-analysis of the deposited data

Results flagged for a closer look

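Each gene was examined in the 3 groups of 4 mice, 30 checks in all, for a mouse far from the other 3 (Dixon's ratio above 0.829), and 5 were found. Chance alone gives about 1 in 20. In Low Control, mouse D9 had 402 CPM of Slc2a4, where the others lay at 664 to 679 CPM, and 1354 CPM of Ldha, where the others lay at 2234 to 2346 CPM. In the same group mouse D8 had 6397 CPM of Pfkm against 4462 to 4659 CPM. In Low Run, mouse D61 had 569 CPM of Hk2 against 489 to 494 CPM. In High Run, mouse D53 had 23566 CPM of Aldoa against 16538 to 17457 CPM. No interaction of a member passed an FDR of 0.1.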

How the results depend on the processing

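Of 1038 log2 fold changes of the members under an alternative, 1037 stayed uncalled and within 1 SD between mice of their value, although 54 of them changed sign, none in High Run against High Control. That SD is a wide yardstick where D9 and D62 are in it, for Pgam2 0.76 with them and 0.24 without. The Pgam2 interaction moved from −0.85 to −0.25 without these mice and still counted as within it. The exception among the 1038 was Pygm for Run averaged over frailty, which DESeq2 called (−0.38, adjusted p = 0.0753). The count of members called there went from 0 to 1, and every other count of calls stayed at 0. The number of members with an unadjusted p under 0.05 was less stable. With voom weights it went to 4 in High (from 1), to 1 for the interaction (from 0) and to 3 averaged over frailty (from 1). With length and GC content offsets it was 1 in Low, 3 in High and 2 averaged, and with no filter on low counts it was 1 for the interaction. Leaving out one mouse at a time gave 0 to 1 in Low (1 without D11), 1 to 5 in High (5 without D53, 2 without D49), 0 to 2 for the interaction (2 without D53, 1 without D8), 0 to 1 in High Run against Low Run (1 without D49) and 1 to 2 averaged (2 without D9 or without D53). The cause was not tested. Scaling by library size alone moved the median of all genes to 0.10 in Low, 0.14 in High and 0.11 averaged, and relative to 0 then 2 members were negative in Low and 6 averaged, while 10 stayed negative in High. With voom weights the log2 fold change of Tbc1d1 was −0.38 in Low and its difference between High and Low Controls was −0.31. No paired analysis was possible because the mouse numbers name single animals and no number recurs between groups. With 3 or 4 mice a group, the SE of the members within a frailty group was 0.14 to 0.45 on the log2 scale, and the part of depth in it was not tested.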

Other observations

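In mice D9 and D62 other genes of glucose use also lay outside the range of the other 13 mice. Of the 55 genes of the wider list that are not among the 10, 13 (23.6%) were below all others in both mice, where 11.5% of all genes were, and 6 (10.9%) were above, no more than the 13.3% of all genes. Pdk4, the kinase that shuts pyruvate dehydrogenase and is high in fasting, was at 6837 CPM in D9 and 4684 CPM in D62, where the other mice ran from 129.6 to 2650.3 CPM. Pgm1, which links glycogen to glycolysis, was at 539 and 576 CPM against 1145 to 1757 CPM, Prkag3, the AMPK subunit of fast muscle, at 42.3 and 73.0 CPM against 152 to 346 CPM, and Gpd1 at 275 and 397 CPM against 580.3 to 999.6 CPM. Pfkfb3, which drives phosphofructokinase, was at 493 and 609 CPM against 86.2 to 468 CPM, and Gaa, the lysosomal enzyme that breaks down glycogen, at 835 and 529 CPM against 313 to 461 CPM. These mice belong to different groups, and the labels give no feature that they share.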
